A study of Mus musculus with 36 samples.

Results

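The immediate response of *Tug1* knockdown (*Tug1* KD) myotubes to electrical pulse stimulation (EPS) was read from 12 of the 36 RNA-seq libraries of the series, namely the 6 whose titles name EPS 0h *Tug1*-KD and the 6 that name Rest *Tug1*-KD. C2C12 cells, a mouse myoblast line that fuses into multinucleate myotubes when serum is withdrawn, were differentiated and on day 3 received an antisense locked nucleic acid (LNA), a chemically stabilised oligonucleotide that directs degradation of its target RNA. The LNA was directed against the long noncoding RNA *Tug1* (*Tug1* KD) or was a negative control (control), and 24 h later, on day 4, the myotubes were stimulated or left at rest. EPS lasted 3 h, at 13 V and 66 Hz with 2 ms pulses given in 5 s trains with pauses of 5 s between them. EPS 0h myotubes were harvested as the pulses ended, and Rest myotubes stood with the electrodes in their medium but disconnected. All 12 libraries therefore carry the *Tug1* LNA and by their labels differ in EPS alone. The remaining groups are EPS 3h *Tug1* KD and the same 3 conditions with the control LNA, of which Rest and EPS 0h control (6 libraries each) were used for 1 comparison. Each library came from 1 well, with 3 wells from each of 2 experiments, so p-values measure the spread between wells and between these experiments of a single cell line under a single *Tug1* LNA.

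Contraction of cultured myotubes by EPS is used as a model of exercise, in which calcium release, ATP turnover, heat and mechanical strain act on the cell together. Stimulated muscle is known to induce immediate early transcription factors within minutes, through CREB, serum response factor and MAP kinases. Heat shock factor 1 induces the chaperone genes when proteins unfold, and ATF4 induces amino acid and stress genes when eIF2alpha is phosphorylated. NRF2, NF-kB and p53 are the corresponding factors for oxidant, inflammatory and DNA damage signals.

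Total gene counts per library lay between 17974037 and 21608733 at Rest and between 17005079 and 24181167 at EPS 0h, where 3 counts correspond to about 0.146 RPM, the count per 1000000 counts of a library after TMM scaling. The first principal component of the 12 libraries (63.5% of the variance) separated Rest from EPS 0h, and the second (14.1%) separated replicates 1 to 3 from replicates 4 to 6 in both groups. These sets of replicates were seen in the data and the labels do not name the experiment of a replicate, so they are a description. Where a named gene's log2FC in one set was over 1.5 times that in the other, or of the other sign, both are given, replicates 1 to 3 first and marked "by set". The myotube label was checked against defining genes, and the summed level of 10 myotube markers lay between 17037 and 23116 RPM at Rest and between 16050.5 and 20177 RPM at EPS 0h. Myoblast and reserve cell markers summed to between 372 and 519.7 RPM at Rest and between 353 and 435 RPM at EPS 0h, and markers of proliferating cells to between 104.3 and 142 RPM and between 119 and 169 RPM. Adipocyte, osteoblast and leukocyte markers, 4 genes each, summed to at most 2.24 RPM at Rest and at most 4.12 RPM at EPS 0h, with *Ibsp* and *Adgre1* at 0 counts in all 12 libraries. In such bulk samples a loss of cells of a type and a loss of RNA per cell cannot be told apart.

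*Tug1*, the transcript that the LNA targets (chromosome 11, 3589785 to 3599673, minus strand on GRCm39), was examined first. At Rest its level ran from 24.0 to 33.3 RPM (median 25.4) in *Tug1* KD libraries and from 38.6 to 58.3 RPM (median 47.8) in control libraries, so no *Tug1* KD library at Rest reached the control range. At EPS 0h the *Tug1* KD libraries ran from 29.5 to 61.9 RPM (median 42.2) and the control libraries from 55.0 to 80.6 RPM (median 67.7). *Tug1* itself was higher after EPS in the *Tug1* KD myotubes, with a log2FC of 0.74 (SE 0.171, FDR = 0.000622), although the highest Rest library overlapped the EPS 0h range. The log2FC was 0.99 for replicates 1 to 3 against 0.44 for replicates 4 to 6, and in control myotubes it was 0.48. In replicates 1 to 3 the EPS 0h level was 43.3 to 61.9 RPM in *Tug1* KD and 72.1 to 80.6 RPM in control libraries, and in replicates 4 to 6 29.5 to 41.0 RPM and 55.0 to 63.3 RPM. The *Tug1* KD libraries thus lay under the control libraries at both conditions within each set, while the level of the target was not constant across the comparison.

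Many genes differed between EPS 0h and Rest. Of 13995 genes tested in edgeR, 1141 (8.15%) were higher at EPS 0h at an FDR under 0.01 with a log2FC above 1, and 350 (2.50%) were lower with a log2FC under -1. At an FDR under 0.05 without a limit on size, 3421 genes (24.4%) were higher and 2967 (21.2%) lower, and the median log2FC of all genes tested was -0.03. In 13.0% of the genes tested the 6 EPS 0h values all exceeded the 6 Rest values, and in 9.52% all were under them, as was so for 939 and 306 of the called genes. The called genes were uneven in size, since 450 of the higher genes but 24 of the lower genes passed 4-fold, and 201 against 0 passed 8-fold. However, 636 of the 1141 higher genes had a mean under 1 RPM at Rest, and such genes could pass the filter through stimulated libraries. Among the 12117 genes with at least 1 RPM in all 12 Rest libraries of both LNAs, 395 were called higher and 312 lower. When library size was the only scaling, 2843 genes rose and 4160 fell at that FDR, so higher genes made up 40.6% of those past that FDR in place of 53.6%. Log2FC values then shifted by a median of -0.09, since TMM factors averaged 1.05 at Rest and 0.990 at EPS 0h (exact two-sided permutation test, p = 0.00216).

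**Figure D1:**
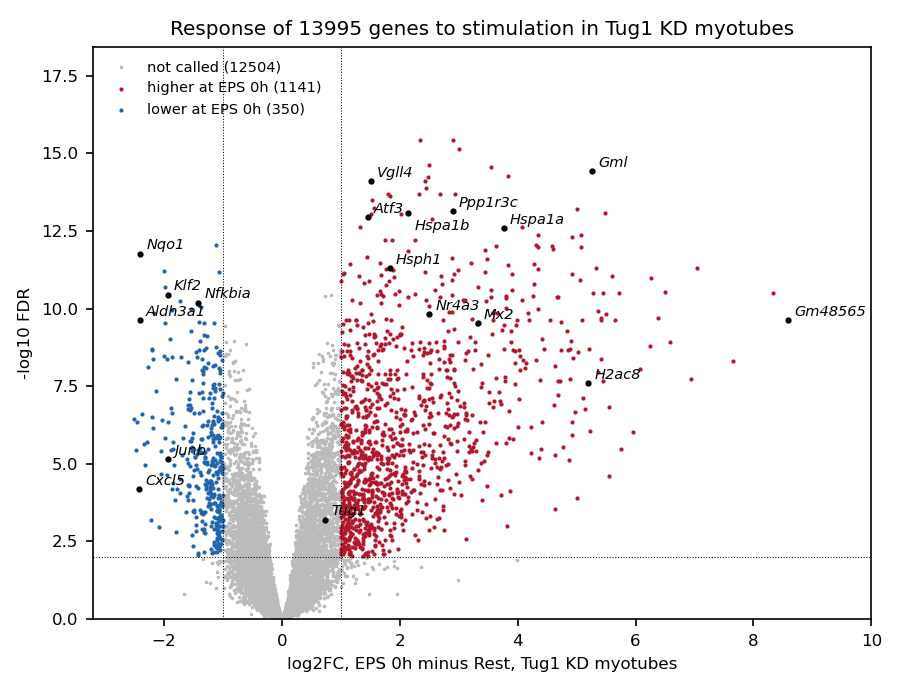
Each point is 1 of the 13995 genes, with its log2FC between EPS 0h and Rest in *Tug1* KD myotubes on the x axis and -log10 of its FDR on the y axis, and dotted lines mark the thresholds. The 1141 higher genes reach a log2FC of 8.59, whereas the 350 lower genes end near -2.46.

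The cytosolic heat shock genes, chaperones that refold or hold unfolded proteins, formed the list with the highest median log2FC (0.98) of the 32 lists examined. Of 24 members 22 rose and 1 fell at an FDR under 0.05, against 24.4% and 21.2% of all genes. In 21 members every EPS 0h library lay above every Rest library, and in 1 member every one lay below. Over all genes tested these shares were 13.0% and 9.52%. The bases before the start of the inducible HSP70 genes are shown because these genes had the largest log2FC of the list among those with a match to the heat shock element core, spelled GAANNTTC or TTCNNGAA and searched on both strands. They come from the RefSeq promoter table (GRCm38.p6, chr17:34972157-34972406 for *Hspa1a* and chr17:34959239-34959488 for *Hspa1b*, both on the minus strand), and capitals mark the core.
Hspa1a: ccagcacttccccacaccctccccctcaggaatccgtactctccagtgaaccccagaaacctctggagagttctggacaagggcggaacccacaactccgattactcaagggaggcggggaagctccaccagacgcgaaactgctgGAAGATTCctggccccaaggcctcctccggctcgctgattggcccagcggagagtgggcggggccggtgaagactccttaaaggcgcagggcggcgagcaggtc
Hspa1b: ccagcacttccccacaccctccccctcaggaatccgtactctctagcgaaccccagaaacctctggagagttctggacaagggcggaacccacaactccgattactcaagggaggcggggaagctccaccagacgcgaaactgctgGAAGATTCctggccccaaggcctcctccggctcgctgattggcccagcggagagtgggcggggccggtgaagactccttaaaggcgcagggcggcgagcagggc
The core ends 96 bases before the start in both. The runs differ at 3 of 250 positions, counted from 1 at the first base printed and with the *Hspa1a* base first, namely C44T, T47C and T249G. The core was present in 13 of 27 promoters in the table for 19 members of the list (48.1%), each 250 bases before to 50 after a start. Among all 13438 promoters of tested genes the share was 11.7%, among those of genes called higher 15.9% and among those of genes called lower 12.4%.

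*Hspa1a* (chromosome 17, 35188166 to 35191132, minus strand) lay from 63.2 to 190.4 RPM (median 97.2) at Rest and from 1156 to 1904 RPM (median 1641) at EPS 0h. This was a log2FC of 3.76 (SE 0.269, FDR = 2.51e-13), the largest of the list, and the lowest stimulated library exceeded the highest Rest library by a wide margin. *Hspa1b* (chromosome 17, 35175412 to 35178214, minus strand) ran from 1138 to 2009.9 RPM (median 1334) at Rest and from 4774 to 7685 RPM (median 6406) at EPS 0h, a log2FC of 2.14 (SE 0.147, FDR = 8.31e-14). Its gain in mean RPM was the largest of all genes, but the near-identical *Hspa1a* and *Hspa1b* may share reads, so the division between them is uncertain. *Hsph1*, an HSP110 nucleotide exchange factor for HSP70, rose from 1482-2486 RPM (median 1668) to 5781-7337 RPM (median 6267), with a log2FC of 1.83 (SE 0.148, FDR = 5.02e-12). *Hsp90aa1*, the inducible HSP90, went from 2088 to 2675 RPM (median 2554) at Rest to a range from 4771 to 8248 RPM (median 6772) at EPS 0h (log2FC 1.43, FDR = 1.82e-07). *Serpinh1*, the collagen chaperone HSP47 and not a member of the list, ran from 1486 to 1779.9 RPM (median 1559.7) at Rest and from 3014 to 4610.0 RPM (median 4006) at EPS 0h (log2FC 1.31, FDR = 9.01e-12). In each of these genes every stimulated library lay above every Rest library.

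The constitutive HSP70 gene *Hspa8* rose less (log2FC 0.53, FDR = 3.78e-05), from 2705 to 2988 RPM (median 2845) at Rest against from 3497 to 4357 RPM (median 4290.3) at EPS 0h. The single member that fell was *Dnajb5*, a J-domain co-chaperone, from a median of 112 to 66.5 RPM (log2FC -0.65, -0.82 and -0.48 by set, FDR = 0.00011), with no overlap between groups. The list's median log2FC came to 0.92 for replicates 1 to 3, close to the 0.93 for replicates 4 to 6.

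Chaperones of the endoplasmic reticulum, which the unfolded protein response controls, formed a separate list. Of 18 genes 6 rose and 1 fell at that FDR (background 24.4% and 21.2%), or 2 with the replicate block, with a median log2FC of 0.12. The largest rise was that of *Herpud1*, a component of the degradation machinery in that membrane, from 187 to 236 RPM (median 206) at Rest and from 288 to 402 RPM (median 351) at EPS 0h (log2FC 0.75, FDR = 7.59e-07). *Dnajc3*, an inhibitor of the eIF2alpha kinase PERK, rose by a log2FC of 0.44 with overlapping libraries (0.56 and 0.31 by set, FDR = 0.00117).

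Genes downstream of eIF2alpha phosphorylation and ATF4 included 11 of 21 that were higher and 1 lower (background 24.4% and 21.2%), with a median log2FC of 0.45. The member with the largest rise was *Chac1*, an enzyme that degrades glutathione, whose upstream bases (RefSeq table, GRCm38.p6, chr2:119350992-119351241, plus strand) are shown, by a choice made after its values were seen, with the match to the C/EBP-ATF response element in capitals. The element is spelled TGATGNAA and lies here on the opposite strand.
Chac1: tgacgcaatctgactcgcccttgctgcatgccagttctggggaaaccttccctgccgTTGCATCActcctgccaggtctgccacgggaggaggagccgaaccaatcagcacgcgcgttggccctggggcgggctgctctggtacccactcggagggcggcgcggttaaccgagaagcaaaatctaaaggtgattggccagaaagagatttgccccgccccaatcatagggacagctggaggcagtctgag
The element was present in 8 of 23 promoters of the list (34.8%), in 2.40% of promoters of all genes tested, in 4.95% of those called higher and in 1.34% of those called lower. *Chac1* ran from 32.7 to 63.8 RPM (median 42.3) at Rest and from 127 to 238 RPM (median 156) at EPS 0h without overlap, a log2FC of 1.90 (SE 0.243, FDR = 7.65e-08). *Gdf15*, a secreted stress cytokine, ran from 88.3 to 132 RPM (median 99.6) at Rest and from 180.4 to 368 RPM (median 221) at EPS 0h (log2FC 1.30, FDR = 3.38e-05). *Sesn2*, an inhibitor of mTORC1 signalling, ran from 20.5 to 34.2 RPM (median 27.5) and from 50.2 to 85.2 RPM (median 59.2) (log2FC 1.21, FDR = 1.92e-06). Both were higher in all 6 stimulated libraries than in any Rest library. *Atf5*, a transcription factor of the mitochondrial stress response, was the member that fell (log2FC -0.90, -1.42 and -0.43 by set, FDR = 0.00162), from a median of 129.6 to 61.1 RPM, and its FDR was 0.0787 in replicates 4 to 6 alone (log2FC -0.43).

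Immediate early transcription factors, which signals induce without new protein, moved in both directions. Of 26 members tested 9 rose and 7 fell at an FDR under 0.05 (background 24.4% and 21.2%). The orphan nuclear receptor gene *Nr4a3* (chromosome 4, 48045153 to 48086447, plus strand) had the largest rise, from 1.35 to 2.73 RPM (median 2.23) at Rest and from 7.45 to 16.7 RPM (median 12.2) at EPS 0h, a log2FC of 2.50 (SE 0.236, FDR = 1.48e-10). Its relative *Nr4a1* lay from 33.3 to 49.0 RPM (median 43.4) at Rest and from 77.1 to 114 RPM (median 92.3) after EPS (log2FC 1.20, FDR = 9.14e-08). *Atf3*, a stress-induced bZIP factor (chromosome 1, 190902493 to 190950241, minus strand), ran from 117 to 197 RPM (median 132) at Rest and from 369 to 423 RPM (median 397) at EPS 0h, a log2FC of 1.46 (SE 0.101, FDR = 1.15e-13). In these 3 genes the groups did not overlap, and replicates 1 to 3 gave the higher *Nr4a3* values at EPS 0h. *Maff*, a small MAF partner of bZIP factors, ran from 42.0 to 59.6 RPM (median 50.5) and from 70.4 to 100.4 RPM (median 87.4) (log2FC 0.79, FDR = 4.88e-06). Among members with a cAMP response element (TGACGTCA) or CArG box before the start of a table promoter, *Maff* had the largest rise. Of its 3 promoters in the table, 1 holds the cAMP response element. The upstream bases of that promoter (RefSeq table, GRCm38.p6, chr15:79347270-79347519, plus strand) are shown with the element in capitals.
Maff: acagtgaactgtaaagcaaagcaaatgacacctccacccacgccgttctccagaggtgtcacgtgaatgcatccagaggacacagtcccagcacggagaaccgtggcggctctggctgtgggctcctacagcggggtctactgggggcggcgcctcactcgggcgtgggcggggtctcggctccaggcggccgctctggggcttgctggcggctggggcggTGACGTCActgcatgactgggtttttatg
That element was found in 2 of 26 promoters of the list (7.69%) and in 2.90% of all promoters. The CArG box was found in 5 (19.2%), which belong to 2 genes, and in 1.33% of all promoters.

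*Klf2*, a Krüppel-like factor, was the member with the largest fall, from 19.7 to 37.9 RPM (median 29.5) at Rest against from 5.70 to 9.60 RPM (median 7.72) at EPS 0h, a log2FC of -1.94 (SE 0.171, FDR = 3.55e-11). *Junb*, an AP-1 subunit, ran from 314 to 647 RPM (median 474) at Rest and from 77.3 to 203 RPM (median 108) at EPS 0h (log2FC -1.93, FDR = 6.89e-06), and it was also among the 4 genes with the largest loss in mean RPM of those past an FDR of 0.01. *Ier3*, an early response gene that NF-kB also induces, fell from a median of 67.1 to 27.8 RPM (log2FC -1.37, FDR = 4.02e-06). All 6 stimulated libraries lay under every Rest library in these 3 genes, although *Junb* was higher in replicates 4 to 6 than in replicates 1 to 3 under both conditions. Among 17 phosphatases and inhibitors that switch MAP kinases off, 8 were higher and 2 lower (background 24.4% and 21.2%). They were led by *Dusp2* (median 6.40 to 18.2 RPM, log2FC 1.48, FDR = 9.01e-08), a phosphatase of the nucleus, and *Dusp16* (median 43.1 to 111 RPM, log2FC 1.41, FDR = 6.97e-10), which acts on JNK. *Dusp10*, a phosphatase of p38 and JNK, fell (log2FC -0.69, -0.41 and -1.01 by set, FDR = 0.000626).

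**Figure D2:**
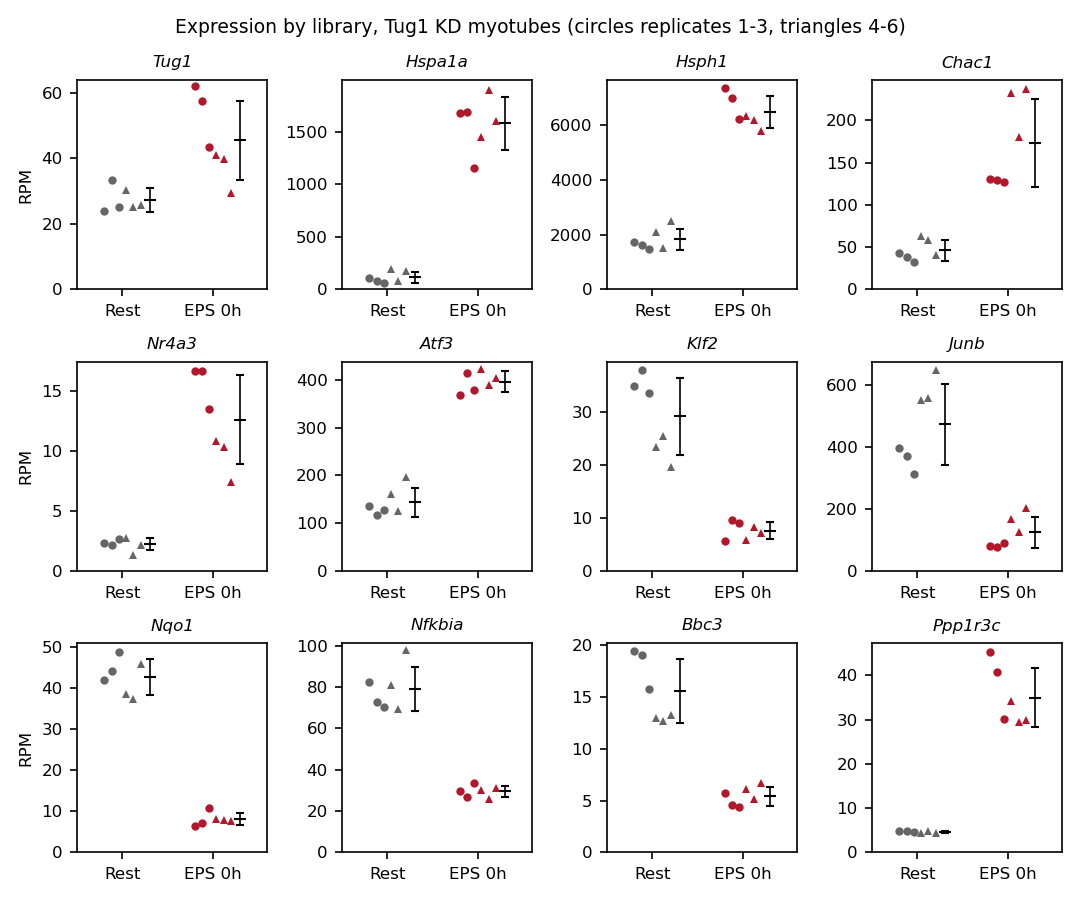
RPM of 12 genes in each *Tug1* KD library at Rest (grey) and EPS 0h (red), with circles for replicates 1 to 3, triangles for replicates 4 to 6, and the mean with its SD (n = 6) beside them. In all but *Tug1* the 6 stimulated libraries lie wholly above or wholly below the Rest libraries.

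Most NRF2 targets, the antioxidant and glutathione genes, were lower after EPS. Of 16 members, 13 were lower and 0 higher at an FDR under 0.05, against 21.2% and 24.4% of all genes, with a median log2FC of -0.64 (-0.61 for replicates 1 to 3, -0.76 for replicates 4 to 6). *Nqo1*, a quinone reductase (chromosome 8, 108113835 to 108129934, minus strand), ran from 37.3 to 48.9 RPM (median 43.1) at Rest and from 6.46 to 10.9 RPM (median 7.82) at EPS 0h, a log2FC of -2.41 (SE 0.186, FDR = 1.69e-12). The glutathione transferase gene *Gsta4* fell from a median of 98.3 to 31.0 RPM (log2FC -1.60, FDR = 1.71e-07), and *Osgin1*, an oxidative stress-induced growth inhibitor, from a median of 216 to 76.9 RPM (log2FC -1.38, -1.75 and -1.12 by set, FDR = 1.84e-05). No stimulated library of these 3 genes reached the Rest range. The antioxidant response element, searched as TGACNNNGC on both strands, was present in 6 of 17 promoters of the list (35.3%), in 14.4% of all promoters and in 12% of those of genes called lower. It was absent from the promoters of *Nqo1* and *Osgin1*, and the RefSeq table held no promoter for *Gsta4*. Outside the list, *Aldh3a1*, an aldehyde dehydrogenase (chromosome 11, 61098363 to 61109247, plus strand), ran from 93.5 to 128 RPM (median 116) at Rest and from 15.1 to 26.6 RPM (median 21.5) at EPS 0h, a log2FC of -2.41 (SE 0.233, FDR = 2.35e-10). The glutathione transferase gene *Gsta1* fell from a median of 8.54 to 1.80 RPM (log2FC -2.20, FDR = 3.16e-07), and its similar neighbours *Gm3776* (log2FC -2.19) and *Gsta5* (log2FC -1.46), which could share its reads, were lower too.

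Chemokine genes, which NF-kB induces, were measured next. Of 11 chemokine genes tested 6 were lower and 0 higher, with a median log2FC of -0.68, against a background of 21.2% and 24.4%. The neutrophil attractants *Cxcl5* and *Cxcl1* ran from 4.48 to 21.8 RPM (median 7.33) and from 18.6 to 80.3 RPM (median 30.6) at Rest, and from 0.689 to 3.72 RPM (median 1.45) and from 3.63 to 15.7 RPM (median 7.84) at EPS 0h. The log2FC was -2.42 for *Cxcl5* (-1.22 and -3.45 by set, FDR = 6.56e-05) and -2.08 for *Cxcl1* (-1.05 and -3.16 by set, FDR = 0.00106), and neither gene's groups overlapped despite a wide spread at Rest. Both fell more in replicates 4 to 6. *Cxcl16*, a membrane-bound chemokine, had a log2FC of -1.73 (-1.18 and -2.22 by set, FDR = 3.12e-05). Among 13 NF-kB subunits and feedback inhibitors 4 were higher and 4 lower (background 24.4% and 21.2%). The subunit gene *Nfkb1* rose from a median of 116 to 222 RPM (log2FC 0.80, 1.15 and 0.48 by set, FDR = 4.32e-06). *Nfkbia*, which encodes the inhibitor IkB-alpha, ran from 69.1 to 97.6 RPM (median 76.8) at Rest and from 25.9 to 33.4 RPM (median 29.9) at EPS 0h, a log2FC of -1.42 (SE 0.129, FDR = 6.41e-11), and *Bcl3*, a nuclear IkB protein, fell as well (log2FC -1.24, FDR = 1.61e-05). *Nfkbiz*, another nuclear IkB protein, rose (log2FC 0.98, 1.53 and 0.53 by set, FDR = 0.000229) with overlapping libraries, and in replicates 4 to 6 alone its FDR was 0.188.

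Of 15 p53 targets, 8 were lower and 1 higher, with a median log2FC of -0.44, where the background was 21.2% and 24.4%, and 2 were higher with the replicate block. *Bbc3*, which encodes the pro-apoptotic protein PUMA, ran from 12.6 to 19.4 RPM (median 14.5) at Rest and from 4.33 to 6.69 RPM (median 5.42) at EPS 0h (log2FC -1.51, -1.88 and -1.11 by set, FDR = 1e-06). *Phlda3*, an inhibitor of AKT, fell from a median of 296 to 145 RPM (log2FC -1.06, -1.51 and -0.72 by set, FDR = 0.000702), and *Zmat3*, a zinc finger RNA-binding protein, from 35.2 to 17.6 RPM (log2FC -1.02, FDR = 8.62e-06). The cell cycle inhibitor *Cdkn1a* (p21) had the largest loss in mean RPM of the genes past an FDR of 0.01, although its log2FC was -0.44 (-0.59 and -0.28 by set, FDR = 0.000181). It lay from 1277 to 1569 RPM (median 1397) at Rest and from 889.6 to 1172 RPM (median 1045) at EPS 0h. The single member that rose was *Sesn1*, a leucine sensor of the sestrin family, from 55.7 to 74.5 RPM (median 67.3) at Rest and from 95.4 to 188 RPM (median 136) at EPS 0h (log2FC 1.05, 1.25 and 0.81 by set, FDR = 6.57e-07). All of these genes had libraries that did not overlap between the groups.

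Among the factors that direct myogenesis, 8 of 19 were higher and 5 lower (background 24.4% and 21.2%). *Myf6*, the bHLH factor of mature muscle, had the largest log2FC of the list but few counts, from 0.181 to 0.878 RPM (median 0.574) at Rest and from 0.974 to 5.70 RPM (median 2.57) at EPS 0h, a log2FC of 2.23 (2.50 and 1.58 by set, SE 0.372, FDR = 8.53e-06). Its neighbour *Myf5*, the bHLH factor of myoblasts, ran from 8.13 to 10.6 RPM (median 9.81) and from 17.3 to 34.7 RPM (median 25.2) (log2FC 1.41, FDR = 9.49e-07). *Vgll4*, a cofactor that competes with YAP for TEAD factors, ran from 63.1 to 83.1 RPM (median 67.0) at Rest and from 172 to 239.9 RPM (median 195) at EPS 0h, a log2FC of 1.51 (SE 0.0931, FDR = 7.62e-15). In these 3 genes every stimulated library exceeded every Rest library. *Id1*, an inhibitor of bHLH factors, fell from a median of 36.8 to 15.4 RPM (log2FC -1.25, FDR = 1.4e-06), and the Notch effector *Hes1* fell too (log2FC -0.92, FDR = 1.47e-05).

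Contractile and calcium handling genes gave counts that depended on the fit. Of 34 sarcomere genes 1 was higher and 4 were lower, and of 22 genes of excitation-contraction coupling 1 was higher and 6 were lower, against 24.4% and 21.2% of all genes. With the replicate block, where 3907 and 4055 of all genes passed, 5 sarcomere genes were higher and 11 lower, and 4 and 7 of the coupling genes. With library size as the only scaling 11 sarcomere genes were lower. The giant filament gene *Ttn* ran from 1692 to 2739 RPM (median 2052) at Rest and from 2599 to 6266 RPM (median 3634) at EPS 0h (log2FC 0.87, FDR = 0.00608), and its log2FC was 1.45 for replicates 1 to 3 against 0.21 for replicates 4 to 6. *Myh2*, a fast myosin heavy chain, had a log2FC of -0.69 (-1.04 and -0.29 by set, FDR = 0.00657), and the troponin gene *Tnnt3* one of -0.48 (-0.87 and 0.01 by set, FDR = 0.0130), with overlapping libraries in both. The *Tnnt3* call was lost without replicate 1 (FDR = 0.0899) or replicate 2 (FDR = 0.0900), and in replicates 4 to 6 alone neither gene passed. *Stac3*, which couples the calcium channel to its release channel, fell from a median of 66.8 to 43.3 RPM (log2FC -0.68, -0.97 and -0.30 by set, FDR = 0.000297), and *Orai1*, the store-operated calcium channel, from 39.0 to 24.4 RPM (log2FC -0.64, -0.88 and -0.40 by set, FDR = 8.26e-05, 0.0534 in replicates 4 to 6 alone). Of 9 genes of mitochondrial calcium uptake 1 was higher and 3 were lower (background 24.4% and 21.2%), with the largest change in *Slc8b1*, the mitochondrial sodium-calcium exchanger, from 81.1 to 113 RPM (median 94.2) at Rest and from 37.2 to 61.8 RPM (median 48.9) at EPS 0h (log2FC -0.95, -1.30 and -0.61 by set, FDR = 5.61e-07).

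RGK GTPases, which inhibit voltage-gated calcium channels, numbered 4 in the table, of which 3 were higher and 1 lower (background 24.4% and 21.2%). *Rrad* ran from 30.4 to 40.8 RPM (median 37.6) at Rest and from 61.0 to 80.6 RPM (median 77.8) at EPS 0h (log2FC 1.02, FDR = 1.04e-07), *Gem* had a log2FC of 0.50 (0.81 and 0.25 by set, FDR = 0.00154, 0.334 in replicates 4 to 6 alone), and *Rem1* fell (log2FC -0.74, -0.94 and -0.54 by set, FDR = 9.53e-05). In calcineurin, CaM kinase and HDAC signalling, 7 of 25 genes were higher and 5 lower, or 9 lower with the replicate block. *Hdac9*, a class IIa deacetylase that restrains MEF2, rose from a median of 17.4 to 45.9 RPM (log2FC 1.35, 1.82 and 0.77 by set, FDR = 4.1e-06) and the kinase gene *Camk2d* from 82.7 to 167 RPM (log2FC 1.10, 1.39 and 0.73 by set, FDR = 4.26e-05). The calcineurin-dependent factors moved apart, since *Nfatc3* rose (log2FC 0.79, 1.04 and 0.55 by set, FDR = 2.38e-06) and *Nfatc4* fell (log2FC -1.17, -1.65 and -0.88 by set, FDR = 0.000116), both without overlap.

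Among stretch and sarcomere stress genes 4 of 13 were higher and 3 lower, shares near the background of 24.4% and 21.2%. The LIM protein gene *Fhl2* rose (log2FC 0.59, 0.47 and 0.73 by set, FDR = 1.7e-07) without overlap. *Xirp1*, an actin-binding repair protein, had a log2FC of 0.48 (0.69 and 0.32 by set, FDR = 0.00461) and the ankyrin repeat gene *Ankrd2* one of -0.57 (-0.84 and -0.27 by set, FDR = 0.000451), with overlapping libraries and neither past an FDR of 0.05 in replicates 4 to 6 alone. In the dystrophin-glycoprotein complex, the link between cytoskeleton and matrix, 4 of 13 were higher and 2 lower, also near it. Dystrophin (*Dmd*) ran from 4.42 to 8.27 RPM (median 6.63) at Rest and from 6.52 to 17.5 RPM (median 11.8) at EPS 0h (log2FC 0.84, 1.10 and 0.42 by set, FDR = 0.0182), and its FDR was 0.0557, 0.0671 and 0.0534 when replicate 1, 2 or 3 was left out and 0.0628 without the filter on low counts. Delta-sarcoglycan (*Sgcd*, log2FC 0.81, 1.03 and 0.51 by set, FDR = 0.00298) and utrophin (*Utrn*, log2FC 0.68, 1.06 and 0.30 by set, FDR = 0.00163, 0.173 in replicates 4 to 6 alone) were higher with overlapping libraries.

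Among genes of muscle wasting 5 of 13 were higher and 5 lower (background 24.4% and 21.2%). *Klf15*, a glucocorticoid-induced factor of amino acid use, ran from 1.58 to 6.34 RPM (median 4.22) at Rest and from 7.87 to 22.1 RPM (median 9.66) at EPS 0h (log2FC 1.67, FDR = 4.08e-05), and *Foxo1* rose (log2FC 0.66, 0.98 and 0.36 by set, FDR = 0.0003). The muscle ubiquitin ligase gene *Trim63* (MuRF1) fell from a median of 67.1 to 45.8 RPM (log2FC -0.55, -0.65 and -0.41 by set, FDR = 7.92e-05), and the stress gene *Gadd45a* fell too (log2FC -0.75, FDR = 1.02e-05). All 4 had groups that did not overlap. Among genes of glucose uptake, glycolysis and hypoxia 2 of 25 were higher and 7 lower, against the same background. *Ppp1r3c*, a subunit that directs protein phosphatase 1 to glycogen (chromosome 19, 36708523 to 36714070, minus strand), ran from 4.33 to 4.92 RPM (median 4.73) at Rest and from 29.4 to 45.3 RPM (median 32.1) at EPS 0h, a log2FC of 2.90 (SE 0.197, FDR = 7.4e-14). The glucose transporter gene *Slc2a1* (GLUT1) fell from a median of 92.1 to 47.1 RPM (log2FC -0.96, FDR = 1.09e-07), and *Pdk4*, which restrains pyruvate oxidation, from 40.3 to 26.1 RPM (log2FC -0.68, FDR = 1.41e-05). Of 21 cholesterol synthesis genes 4 were higher and 4 lower, including *Msmo1* (log2FC 0.73, FDR = 0.00128) and *Fdps* (log2FC -0.89, -1.34 and -0.54 by set, FDR = 0.00302, 0.0785 in replicates 4 to 6 alone). These counts were 6 and 7 with the replicate block.

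Subunits of the electron transport chain encoded in the nucleus had 21 of 78 members lower and 1 higher, where the background was 21.2% and 24.4%, with a median log2FC of -0.19. The value for replicates 1 to 3 was -0.27, that for replicates 4 to 6 was -0.03, and 0 members had all stimulated libraries below every Rest library. *Atp5k*, a subunit of ATP synthase, had the largest fall (log2FC -1.32, -2.08 and -0.37 by set, FDR = 0.00160) and *Ndufa3* of complex I followed (log2FC -0.77, -1.14 and -0.34 by set, FDR = 0.00468), both with overlapping libraries and with an FDR of 0.371 and 0.265 in replicates 4 to 6 alone. The member that rose was *Ndufab1*, the mitochondrial acyl carrier protein (log2FC 0.61, 0.75 and 0.44 by set, FDR = 0.00503). Of 10 subunits encoded in mtDNA, *mt-Nd1* alone passed (log2FC -0.73, -0.40 and -1.20 by set, FDR = 0.0163), and its FDR was 0.0979 without replicate 5, while 3 were lower with the replicate block. The median log2FC of these 10 subunits was -0.20, with 0.09 for replicates 1 to 3 and -0.50 for replicates 4 to 6. The share of counts on mtDNA genes averaged 1.74% at Rest and 1.72% at EPS 0h, a difference within the spread (exact two-sided permutation test, p = 0.948). In replicates 1 to 3 the share ran from 1.49% to 2.07% at Rest and from 1.65% to 2.36% at EPS 0h. In replicates 4 to 6 it ran from 1.31% to 2.35% and from 1.08% to 1.67%. The means over all replicates therefore join sets that moved in different directions.

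Of the factors that govern mitochondrial gene expression 5 of 14 were higher and 1 lower (background 24.4% and 21.2%), or 3 lower with the replicate block. The nuclear receptor gene *Pparg* ran from 13.7 to 17.4 RPM (median 15.4) at Rest and from 36.1 to 47.0 RPM (median 40.1) at EPS 0h, a log2FC of 1.39 (SE 0.118, FDR = 1.49e-11), without overlap. *Gabpa*, the DNA-binding subunit of GABP, rose by a log2FC of 0.59 (0.81 and 0.37 by set, FDR = 4.42e-05), whereas *Polrmt*, the mitochondrial RNA polymerase, fell (log2FC -0.34, FDR = 0.00169), both with overlapping libraries. *Tfam*, the mtDNA packaging factor, had a log2FC of 0.21 at the edge of the threshold (0.27 and 0.15 by set, FDR = 0.0449), and its FDR lay above 0.05 under 9 of the 17 alternatives, among them the removal of replicate 1, 2, 4 or 5 (FDR from 0.0630 to 0.149). *Nrf1* had a log2FC of -0.07 (0.03 and -0.15 by set, SE 0.0838, FDR = 0.527), and the estrogen-related receptor genes *Esrrb* (log2FC 0.59, 1.12 and 0.22 by set, FDR = 0.0872) and *Esrrg* (log2FC 0.26, 0.67 and -0.42 by set, FDR = 0.527) were under 3 RPM in all Rest and EPS 0h libraries. *Esrrb* passed without replicate 4 (log2FC 0.85, FDR = 0.0347) and in replicates 1 to 3 alone (log2FC 1.12, FDR = 0.0191).

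Secreted factors of muscle included 9 of 19 higher and 2 lower genes (background 24.4% and 21.2%). The neurotrophin gene *Bdnf* ran from 18.2 to 31.2 RPM (median 23.5) at Rest and from 73.2 to 108 RPM (median 96.1) at EPS 0h, a log2FC of 1.92 (SE 0.169, FDR = 3.48e-11). *Inhba*, a subunit of activin A, rose from a median of 50.2 to 119 RPM (log2FC 1.08, 1.58 and 0.58 by set, FDR = 3.5e-06), both genes without overlap. *Csf1*, the macrophage growth factor, fell with overlapping libraries (log2FC -0.64, FDR = 0.0115). Of 17 genes of TGF-beta, BMP and YAP signalling 7 were higher and 2 lower, against the same background. They included *Amotl2*, an inhibitor of YAP, from 309 to 505 RPM (median 357) at Rest and from 798 to 1292 RPM (median 1070.1) at EPS 0h (log2FC 1.47, FDR = 1.31e-11), the inhibitory SMAD gene *Smad7* (log2FC 1.34, FDR = 4.91e-06) and the BMP antagonist *Noggin* (*Nog*, log2FC 0.82, 0.43 and 1.26 by set, FDR = 4.8e-05). The ligand gene *Tgfb3* fell (log2FC -0.63, -0.82 and -0.42 by set, FDR = 5.53e-07), and none of these 4 had overlapping groups.

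The smaller lists that follow are read against the same 24.4% of all genes higher and 21.2% lower. Zinc-related genes were few, with 2 of 4 higher, namely *Mtf1*, the factor that senses zinc (log2FC 0.84, FDR = 1.51e-09), and the importer *Slc39a10* (log2FC 0.69, FDR = 1.11e-05). Of 18 interferon response genes 1 was higher and 2 were lower, and 2 and 4 with the replicate block. The 1 gene was *Mx2*, an antiviral GTPase, from 3.52 to 11.3 RPM (median 6.24) at Rest and from 49.7 to 93.6 RPM (median 60.9) at EPS 0h, a log2FC of 3.32 (SE 0.323, FDR = 2.92e-10), while *Irf1*, an interferon regulatory factor, fell (log2FC -1.25, FDR = 5.64e-09). Among circadian clock genes 7 of 17 were higher and 3 lower, including *Clock* (log2FC 1.12, 1.45 and 0.76 by set, FDR = 1.25e-06) and the repressor *Cry2* (log2FC -0.43, -0.52 and -0.34 by set, FDR = 0.00248, 0.0937 in replicates 4 to 6 alone). Among splicing regulators 5 of 19 were higher and 5 lower, shares near the background, or 8 higher with the replicate block. The kinase gene *Clk3* rose from a median of 36.1 to 61.1 RPM (log2FC 0.72, FDR = 3.87e-11). *Srsf5*, an SR protein gene, fell (log2FC -0.90, FDR = 1.26e-08), and so did *Cirbp*, an RNA-binding protein that cold induces (log2FC -0.94, -1.39 and -0.48 by set, FDR = 1.94e-05). Of 20 autophagy genes 8 were lower and 3 higher. The ATG8 homologue gene *Gabarapl1* fell (log2FC -0.57, -0.80 and -0.37 by set, FDR = 0.00249) and *Atg16l1*, a scaffold of the conjugation machinery, rose (log2FC 0.43, FDR = 1.38e-06). Of 25 cell cycle genes 6 were higher and 5 lower, shares near the background, among them the replication helicase gene *Mcm4* (log2FC 0.79, FDR = 2.75e-09) and the proliferation marker *Mki67* (log2FC 0.73, 0.90 and 0.54 by set, FDR = 0.000483). 

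Of 13 long noncoding RNAs of known name 4 were higher, *Tug1* included, and 2 lower (background 24.4% and 21.2%). The imprinted *Kcnq1ot1*, which lies antisense to *Kcnq1* and may not be separable from it, rose (log2FC 1.62, 2.07 and 1.12 by set, FDR = 6.49e-07), while *Neat1*, which scaffolds paraspeckles, had a log2FC of -0.70 (-1.13 and -0.38 by set, FDR = 0.00903) that missed 0.05 without replicate 1 (FDR = 0.0523) or replicate 2 (FDR = 0.0749). Of the other genes the study names for EPS, *Vps13c*, a lipid transfer protein, had a log2FC of 0.61 (1.04 and 0.24 by set, FDR = 0.00375, 0.345 in replicates 4 to 6 alone).

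**Figure D3:**
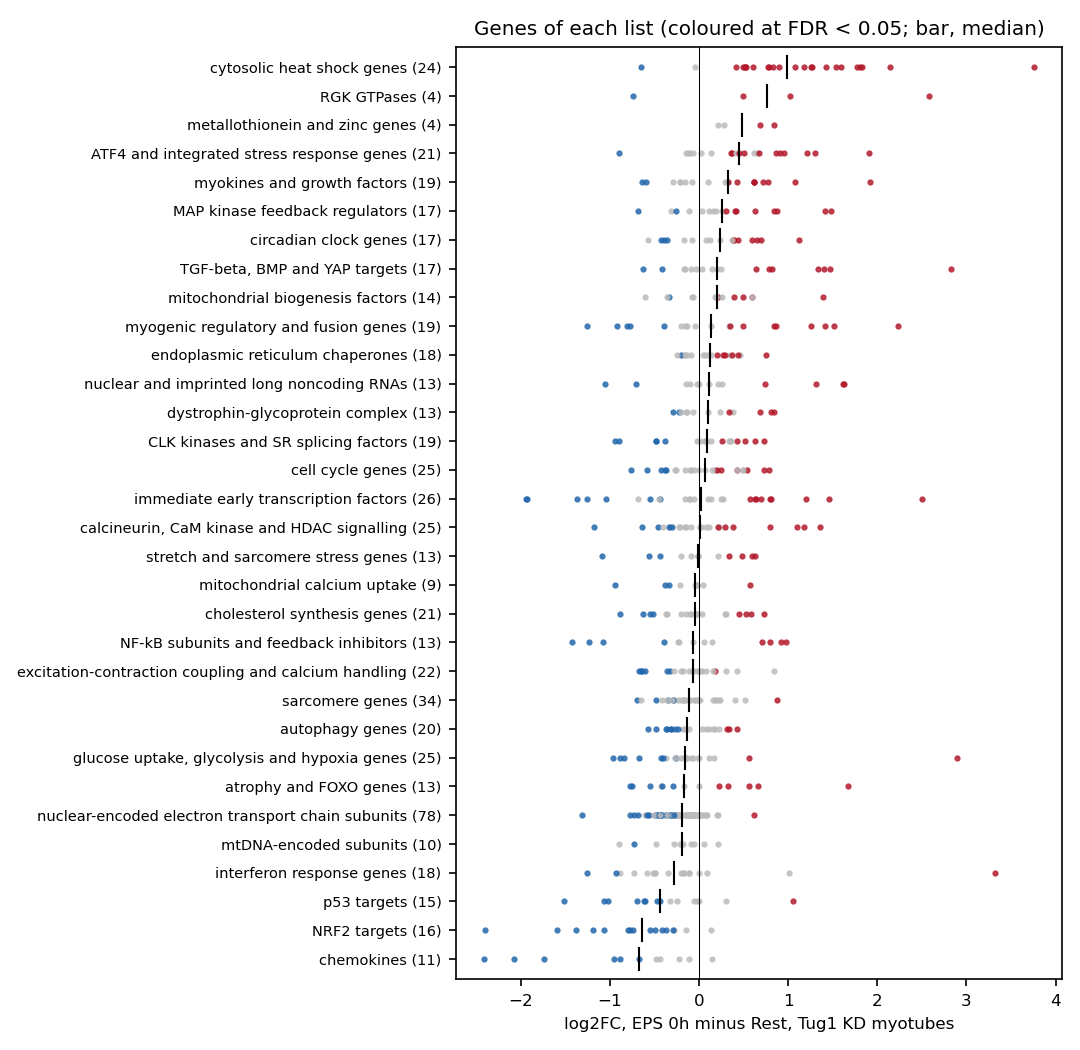
Log2FC between EPS 0h and Rest in *Tug1* KD myotubes for each tested gene of the 32 lists, with the number tested in brackets, colour where the FDR is under 0.05 (red higher, blue lower) and a bar at the median. Cytosolic heat shock genes have the highest median (0.98) and chemokines the lowest (-0.68), while immediate early factors spread from -1.94 to 2.50.

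The largest rises among genes that reached 5 RPM were those of transcripts near 0 at Rest. *Gm48565* (chromosome 9, 40732265 to 40733969, plus strand), of the type TEC, a class of transcribed loci that await experimental support, had at most 1 count in any Rest library and 85 to 475 counts at EPS 0h. It was at least 81.2-fold higher (mean against a floor of 3 counts per library, FDR = 2.32e-10). Its annotated start lies 1.23 kb past the end of *Hspa8* on the same strand. *Gml2* (chromosome 15, 74690798 to 74739341, plus strand) rose from at most 0.470 RPM to a range from 4.58 to 10.1 RPM (median 7.47) and *Gml* (chromosome 15, 74685297 to 74691246, minus strand), of the same family of GPI-anchored proteins, from at most 1.08 RPM to one from 14.8 to 22.4 RPM (median 19.3). The log2FC was 5.47 (FDR = 8.31e-14) and 5.26 (FDR = 3.74e-15). Within the span of *Gml2* lie, on the opposite strand, the steroid hydroxylase genes *Cyp11b1* (mean 0.176 to 5.56 RPM, log2FC 4.92) and *Cyp11b2* (mean 0 to 2.02 RPM), named here after their values were seen. The neighbouring *Ly6k* (log2FC 5.36) and *Ly6m* (log2FC 3.85), also chosen that way and both under 1 RPM on average, were higher too. Genes so near 0 at Rest could pass the filter on low values only through stimulated libraries. A joint rise of those tested in this stretch of chromosome 15 is therefore favoured by the filter. The libraries were made by a stranded method, but the strand setting of the counting is not given in the sources used here, so reads of overlapping genes may not be separable.

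*Gm5566* (chromosome 5, 149584230 to 149584688, minus strand) and *Gm5781* (chromosome 10, 116808671 to 116809113, minus strand) are processed pseudogenes that may share reads with their parent genes, and rose from at most 0.376 and 0.670 RPM to ranges from 3.64 to 10.8 RPM (median 5.49) and from 8.07 to 16.8 RPM (median 11.3). *Gm5566* lies 24.1 kb from *Hsph1*, and between them the lncRNA gene *Gm20005*, which overlaps *Hsph1* on the opposite strand, rose from a mean of 2.35 to 80.4 RPM (log2FC 5.08, FDR = 1.07e-12). *H2ac8* (chromosome 13, 23754691 to 23755394, minus strand), a core histone gene, ran from 0.107 to 0.866 RPM (median 0.385) at Rest and from 5.91 to 29.9 RPM (median 15) at EPS 0h (log2FC 5.20, FDR = 2.47e-08). The nearest tested genes of its cluster were higher as well. In order of distance they were *H2bc8* (log2FC 3.19), *H2bc7* (log2FC 2.80), *H3c4* (log2FC 1.15), *H3c6* (log2FC 2.84) and *H1f3* (log2FC 1.06). At Rest *H2bc7* and *H3c6* had means of 0.539 and 0.237 RPM, and such genes could pass the filter on low values through stimulated libraries. The filter therefore favours rises among the tested genes of this cluster and of the histone family below. Over the 15 histone genes of the replication-dependent clusters that were tested, a family taken up after *H2ac8* was seen, 7 were higher and 2 lower past that FDR of 0.05 (background 24.4% and 21.2%). Their summed level ran from 195 to 254 RPM at Rest and from 199.6 to 249 RPM at EPS 0h. Such histone transcripts normally lack a poly-A tail and the libraries were selected for poly-A, so these values count the tailed part.

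The largest falls among genes of at least 5 RPM at Rest were those of *Cxcl5*, *Aldh3a1*, *Nqo1* and *Gsta1*, given above, *Gm37795* (chromosome 4, 150152996 to 150155454, plus strand), a TEC locus that overlaps *Mir34a* and *Gm13067* on the same strand, and *Tsku*, a secreted proteoglycan. *Gm37795* lay from 4.67 to 12.9 RPM (median 9.39) at Rest and from 1.36 to 2.08 RPM (median 1.58) at EPS 0h (log2FC -2.46, FDR = 4.5e-07). *Tsku* lay from 24.5 to 39.9 RPM (median 31.0) and from 3.68 to 8.43 RPM (median 5.59) (log2FC -2.37, FDR = 2.42e-07). Of the genes past an FDR of 0.01, *Hspg2*, the basement membrane proteoglycan perlecan, and *Slc6a6*, the taurine transporter, lost most in mean RPM after *Cdkn1a* and *Junb*. *Hspg2* ran from 937 to 1293 RPM (median 1092) at Rest and from 648 to 987 RPM (median 751) at EPS 0h (log2FC -0.47, FDR = 0.00305), and *Slc6a6* from 593 to 889 RPM (median 704) and from 418 to 518 RPM (median 477) (log2FC -0.58, FDR = 1.85e-05). At an FDR under 0.05, 5 genes lost more than *Cdkn1a*, between 457 and 709.6 RPM in the mean, namely *mt-Nd1* and *Tnnt3*, given above, and *Nes*, *Gpc1* and *Itga7*, named after their values were seen.

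More genes were detected after stimulation. The number with at least 1 count was between 21248 and 23604 per library at Rest and between 23967 and 25204 at EPS 0h, a mean difference of 2101 genes (exact two-sided permutation test, p = 0.00216, the smallest this design can give). Over the whole table of 55416 genes, 45 had at most 1 count in every Rest library and at least 5 in every EPS 0h library, and 1 showed the opposite. By the same rule 26 genes qualified in control myotubes, and 8 of the 45 were among them. This difference was not tested. Of the 45 genes in *Tug1* KD 14 are protein-coding. The 5 of them with the highest medians were aldosterone synthase (*Cyp11b2*, median 40.5 counts at EPS 0h), the melanocortin receptor *Mc3r* (39.0 counts), *Bmp7* (25.0 counts), the epithelial adhesion molecule *Epcam* (22.5 counts) and the theta-globin gene *Hbq1b* (20.5 counts). These levels are low, and the count was made after the values were seen.

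Called genes differed in type and length. TEC loci were called higher in 93 of 181 cases (51.4%), lncRNA genes in 195 of 824 (23.7%), processed pseudogenes in 47 of 266 (17.7%) and protein-coding genes in 783 of 12581 (6.22%), against 8.15% overall. A gene near 0 at Rest could pass the filter on low values through its stimulated libraries, which favours higher calls at low levels. Among the 12117 genes with at least 1 RPM in all 12 Rest libraries of both LNAs, which pass the filter without EPS, 9 of 44 TEC loci (20.5%), 23 of 395 lncRNA genes (5.82%) and 350 of 11458 protein-coding genes (3.05%) were called higher. This comparison was added after the values were seen, and the types still differ in level, with a median of 2.87 RPM at Rest for these TEC loci against 34.4 RPM for protein-coding genes, so the part of level and filter in the larger shares above cannot be told apart from type. Of 179 TEC loci with coordinates, 75 lie inside a tested protein-coding gene on its own strand, where 41 were called higher (54.7%), against 49.0% of the rest. TEC loci took a mean of 0.0498% of counts at Rest and 0.0774% at EPS 0h (exact two-sided permutation test, p = 0.00649). Of the higher genes 22.2%, and of all tested genes 20.5%, begin within 10 kb after the end of a tested gene on the same strand. Among protein-coding genes these shares were 25.4% and 21.3%. The gene before them was itself called higher for 37 of 249 such higher genes (14.9%) and for 183 of 2852 of all (6.42%). What this position contributes was not tested.

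Among protein-coding genes the median log2FC rose with the genomic span. The median was -0.25 for 1002 genes of up to 5 kb, -0.11 for 4314 genes of 10 to 30 kb, 0.20 for 1463 genes of 100 to 300 kb and 0.35 for 298 genes over 300 kb. Genes called lower made up 5.99% of the shortest class and 0.671% of the longest, while 8.08% and 9.06% were called higher. The difference was larger in replicates 1 to 3, from -0.45 to 0.58, than in replicates 4 to 6, from -0.07 to 0.17, and in control myotubes it ran from -0.15 to 0.26. With library size as the only scaling it ran from -0.34 to 0.27. The short electron transport chain and long *Ttn*, *Dmd* and *Utrn* genes above sit within this gradient, and its part in their values was not tested.

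**Figure D4:**
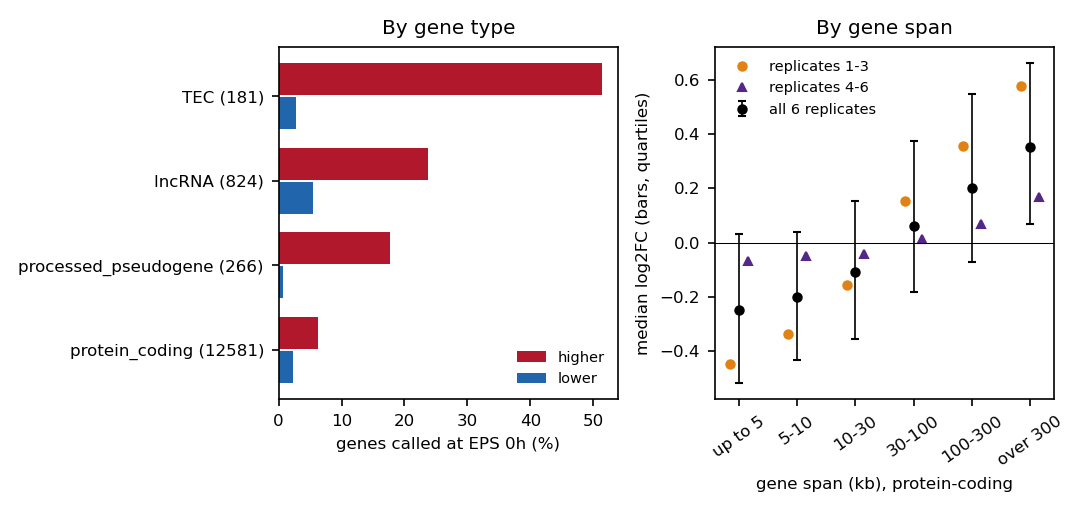
Left, the share (%) of tested genes of each type (number in brackets) called higher (red) or lower (blue) at EPS 0h in *Tug1* KD myotubes. Right, the median log2FC of protein-coding genes by genomic span in kb, with quartiles for the fit to all libraries (black), and medians in replicates 1 to 3 (orange) and 4 to 6 (purple), which rise from -0.25 to 0.35 over all libraries.

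The called genes had the same directions in the 2 sets of replicates, with different sizes. All 1491 had the same sign in both sets, which their selection on both sets together favours. Their median absolute log2FC was 1.79 for replicates 1 to 3 against 1.39 for replicates 4 to 6. Of 118 named genes, 57 differed in log2FC by over 1.5 times or in sign between the sets, 49 of them with the larger size in replicates 1 to 3. Across all genes tested, which are not independent replicates, Pearson's r between the sets' log2FC was 0.839. Replicates 1 to 3 alone gave 1486 higher and 648 lower genes by the same thresholds, and replicates 4 to 6 alone 780 and 295.

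To ask whether *Tug1* KD altered the response, the log2FC of *Tug1* KD myotubes was compared with that of control myotubes in an interaction term, for which the 12 *Tug1* KD and 12 control libraries are separate. Of 13995 genes, 0 (0%) differed at an FDR under 0.05 in edgeR, limma-voom or DESeq2, and the lowest FDR was 0.9999 in edgeR. In edgeR 324 genes (2.32%) had an unadjusted p under 0.05, 227 of them with a larger log2FC in *Tug1* KD. That share is smaller than such a threshold gives where no gene differs. These fits held no term for the 2 sets of replicates, whose offset stayed in the spread, so 0 genes do not show that the responses were equal. The approximate 95% interval of the difference between the responses had a median half-width of 0.40 over genes. This width is for a single gene without adjustment, so larger differences could also miss the FDR over all genes. By the thresholds for size, 833 genes were higher in both kinds of myotubes, 73.0% of the 1141 in *Tug1* KD and 95.5% of the 872 in control. Likewise 214 were lower in both, 61.1% of 350 and 69.5% of 308. Of the 308 genes that passed as higher in *Tug1* KD alone, 307 had a positive log2FC in control, with a median of 0.85 there and 1.16 in *Tug1* KD. Across all genes Pearson's r between the log2FC values of *Tug1* KD and control was 0.953.

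**Figure D5:**
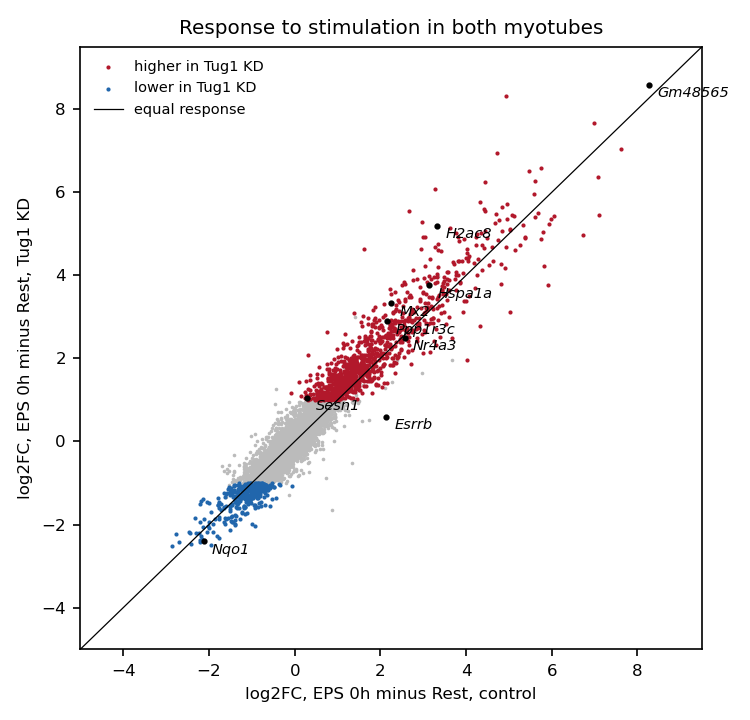
Each point is a gene, with the log2FC between EPS 0h and Rest in control myotubes on the x axis and in *Tug1* KD myotubes on the y axis, and colours mark genes called in *Tug1* KD. Points follow the line of equal response, with *Sesn1* above it (1.05 in *Tug1* KD, 0.29 in control) and *Esrrb* below it (0.59 and 2.14). *Esrrb* had a low level and did not pass an FDR of 0.05 in *Tug1* KD. Neither gene's difference passed that FDR in edgeR without a term for replicates.

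For single genes the difference was given with its interval. *Sesn1* had a log2FC of 1.05 in *Tug1* KD and 0.29 in control myotubes, a difference of 0.76 with an approximate 95% interval from 0.35 to 1.18. It ran from 47.9 to 59.8 RPM (median 55.2) at Rest and from 52.3 to 81.1 RPM (median 67.7) at EPS 0h in control libraries. With a term for the replicate number, which treats libraries of the same number as pairs by assumption, the difference in *Sesn1* reached an FDR of 0.0107. *Sesn1* was the 1 gene called. *Hspa1a* differed by 0.62 with an approximate 95% interval from -0.05 to 1.29, and *Ppp1r3c* by 0.73 with an approximate 95% interval from 0.21 to 1.25. For *Nr4a3* the difference was -0.07 with an approximate 95% interval from -0.71 to 0.57, for *Nqo1* -0.28 with an approximate 95% interval from -0.78 to 0.21 and for *Tug1* itself 0.26 with an approximate 95% interval from -0.21 to 0.73. None of these genes passed the FDR over all genes without the replicate term. In the heat shock list 23 of 24 members had a larger log2FC in *Tug1* KD, with medians of 0.98 and 0.81 in control, and in the NRF2 list 8 of 16 did, with medians of -0.64 and -0.66. Some lists were one-sided the other way. The log2FC was larger in *Tug1* KD for 0 of 10 mtDNA-encoded subunits, 6 of 78 nuclear-encoded electron transport chain subunits and 2 of 15 p53 targets. Over all genes tested the medians were -0.027 in *Tug1* KD and -0.025 in control. The share of all genes with a larger log2FC in *Tug1* KD was not counted. Members of a list share the same libraries, so these counts are a description. No list's difference was tested as a group.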

How the data were processed

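Poly-A RNA of C2C12 myotubes was sequenced from 36 stranded libraries, of which the 12 of *Tug1* KD at Rest and EPS 0h were described here and the 12 of the control LNA served for the interaction. The deposited values are raw counts per gene, which the authors made by trimming with fastp 0.14.1, quality control with FastQC 0.11.7 and alignment with STAR 2.5 to GRCm39. Tool versions follow the submitters' processing notes and the study's methods, and the counting tool and its strand setting are not given in the sources used here. The files hold 55416 genes, of which 1492 without a name took 0.0327% of counts, and spike-in counts were not used here.

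The 13995 genes that reached 1 RPM in 12 or more libraries were tested with edgeR 4.0.16 (R 4.3.3), using TMM factors, a robust quasi-likelihood fit to all 6 groups and Benjamini-Hochberg adjustment over all genes tested. The standard error of a log2FC was derived from the quasi-likelihood F. A called gene had an FDR under 0.01 and an absolute log2FC above 1, and list members were counted at an FDR under 0.05. The interaction was the log2FC of *Tug1* KD minus that of control. Single values per library were compared by exact two-sided permutation tests. The script was tested on simulated counts. A floor of 3 counts per library was set for genes near 0 and covers counting error only.

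Libraries of the same replicate number deviated together between Rest and EPS 0h *Tug1* KD (r from 0.156 to 0.376 for the 6 pairs). Libraries of other numbers reached an r of 0.332, and replicate 6 at Rest had a higher r with another number (0.290) than with its own (0.156). Pairing by number is therefore an assumption, and a fit with the replicate number of the labels as a block was run as an alternative. No 2 libraries of a group were alike within sampling noise. Other alternatives were limma-voom (limma 3.58.1), DESeq2 1.42.0, library size or upper quartile scaling, no filter or a stricter filter, an experiment block, the compared groups alone, each set of 3 replicates alone, leaving out each replicate number in turn and glmTreat.

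The genes named were *Tug1*, the 6 largest rises and falls among called genes of at least 5 RPM without overlap, the 4 largest gains and losses in mean RPM, up to 3 members of each list in each direction past an FDR of 0.05 with at least 5 RPM, and genes the study names for EPS. Some of the list members so chosen were summarised without names or are not reported here, and *Hspa8* was added as the neighbour of *Gm48565*. Members, lists and rules were chosen with earlier results of these data known. Coordinates are from GENCODE on GRCm39, and promoters are from a RefSeq table on GRCm38.p6, which matched 10497 of 13990 tested gene names.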

Additional observations from a re-analysis of the deposited data

Results flagged for a closer look

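Among 236 groups of 6 libraries examined for the named genes, 6 held a library whose gap to the nearest other exceeded Dixon's critical value of 0.625, where chance marks about 1 group in 20. Replicate 5 at Rest had 2088 RPM of *Hsp90aa1*, under the 2499.8 to 2675 RPM of the other libraries. Replicate 6 at Rest had 1779.9 RPM of *Serpinh1* (others 1486 to 1589 RPM) and 47.1 RPM of *Mtf1* (others 31.6 to 37.3 RPM). Replicate 3 at Rest had 13.8 RPM of *Sgcd* (others 7.90 to 10.0 RPM) and 53.1 RPM of *Tfam* (others 40.5 to 45.1 RPM). At EPS 0h, replicate 3 had 61.0 RPM of *Rrad*, under the 75.8 to 80.6 RPM of the others. Leaving out the replicate in question kept the call of each of these genes.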

How the results depend on the processing

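Directions of the named genes past an FDR of 0.05 held across the settings tried with 1 exception, and counts moved with the filter and the set of replicates. Without the filter 2065 genes were called higher and 592 lower, in a larger table of tested genes. Tested against a log2FC of 1 itself (glmTreat), 494 were higher and 40 lower. Replicates 1 to 3 alone gave 648 lower genes at an FDR under 0.01, and replicates 4 to 6 alone gave 2220 higher and 1760 lower genes at an FDR under 0.05. Upper quartile scaling gave 3069 and 3700 of these (45.3% higher).

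With the replicate block 1145 genes were higher and 379 lower, it changed no other call of a named gene, and 1 gene passed in the interaction (*Sesn1*), as 1 did with the experiment block.

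Leaving out each replicate number in turn gave 1003 to 1224 higher and 286 to 417 lower genes by the thresholds for size, 2897 to 3493 and 2150 to 3317 at an FDR under 0.05, and a log2FC of 0.60 to 0.80 for *Tug1*, with 0 genes past the interaction each time. Over 17 settings for each of 118 named genes, 1969 values kept their side of the threshold without a change of sign in a called gene, 34 lost the call (17 of them in replicates 4 to 6 alone) and 2 gained it. In replicates 4 to 6 alone *Tnnt3* changed sign, to 0.0098, and the cause was not tested. *Nrf1* and *Esrrg*, past no threshold, changed sign between the sets of replicates. Medians of 8 lists moved by more than the spread, mostly between the 2 sets of replicates. With 3 wells from each of 2 experiments, the unadjusted 95% interval of a typical gene's interaction had a half-width of about 0.40 on the log2 scale. Larger interactions could still miss the FDR over all genes. Genes near 0 at Rest have log2FC values that rest on a few counts.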
